A study of Mus musculus with 26 samples.

Results

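The regions described are pairs of neighbouring genes in NIH3T3 cells, an immortalised line of mouse embryonic fibroblasts, in which the upstream gene was expressed and the gene after it was silent before stress. A pair was taken where the upstream gene had at least 5 TPM (transcript copies scaled to a fixed sum in each library) and the downstream gene was under 1 TPM in all 4 control RNA libraries, so that members were selected on these control TPM values. The authors' deposited table of read-in estimates holds 6399 pairs, and 1507 of them met this rule. The upstream level was met in 5242 pairs and the downstream level in 1887, and a downstream or upstream TPM was missing for 107 and 118 pairs. Hspa1l, with a highest control value of 0.99 TPM, lay just inside the downstream limit and Car15, at 1.00 TPM, just outside; Kdm5b at 5.02 TPM and Pfkfb2 at 4.97 TPM lay on either side of the upstream limit. Of the 1507 downstream genes, 489 were listed at 0 TPM in all 4 controls, 1445 are protein-coding and 53 are long non-coding RNAs in RefSeq.

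Polyadenylated RNA was sequenced from cells under oxidative stress (H2O2) for 2 h or 7 h, under osmotic stress (KCl) for 2 h or 7 h and from their shared control. A separate set held cells heated to 44 °C for 2 h or 42 °C for 8 h and their own control. Ribosome footprints, the short RNA pieces covered by translating ribosomes, were sequenced for the H2O2, KCl and shared control groups. Each of the 13 groups had 2 libraries, and no label says whether these came from separate cultures, so that p-values measure only the spread between these libraries, which may be technical.

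When RNA polymerase II reaches the end of a gene, the transcript is normally cleaved at the poly(A) signal and transcription stops a short way beyond it. Heat, osmotic and oxidative stress are known to weaken this step, and the polymerase can then run on as a "downstream of gene" (DoG) transcript. Where a DoG reaches the next gene on the same strand, exons of that gene can be carried in RNA that did not start at its own promoter, which is called read-in. A gene that is silent by itself is the plainest place to look for it, because a gene switched on by its own promoter and a gene read into from its neighbour can both show RNA, and footprints add a separate measure of whether that RNA is translated.

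The promoters below belong to downstream genes with the highest RNA level after 2 h of H2O2 (Ovgp1, Nppb, Pygm) and after 7 h (Jag2, Tbc1d8, Matn4), among those with a RefSeq entry. They are shown because the stretch before the start of the gene is what a gene transcribed from its own start would use, and what a read-in transcript would run through. Each line gives the 250 bases before the start used in the RefSeq promoter table, which can differ from the outer end of the gene, 5′ to 3′ on the strand of the gene, and capitals mark the dinucleotide CG.
Ovgp1, chr3:105973552-105973801, plus strand: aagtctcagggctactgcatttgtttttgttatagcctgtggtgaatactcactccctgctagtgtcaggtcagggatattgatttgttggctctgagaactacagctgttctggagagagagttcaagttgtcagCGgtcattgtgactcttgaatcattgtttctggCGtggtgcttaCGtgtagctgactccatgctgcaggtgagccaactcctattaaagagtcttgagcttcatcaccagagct
Nppb, chr4:147985650-147985899, plus strand: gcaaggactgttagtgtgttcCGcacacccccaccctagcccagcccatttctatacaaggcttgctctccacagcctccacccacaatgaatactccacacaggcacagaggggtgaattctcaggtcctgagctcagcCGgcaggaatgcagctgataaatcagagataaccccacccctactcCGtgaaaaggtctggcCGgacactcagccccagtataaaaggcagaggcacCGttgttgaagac
Pygm, chr19:6384158-6384407, plus strand: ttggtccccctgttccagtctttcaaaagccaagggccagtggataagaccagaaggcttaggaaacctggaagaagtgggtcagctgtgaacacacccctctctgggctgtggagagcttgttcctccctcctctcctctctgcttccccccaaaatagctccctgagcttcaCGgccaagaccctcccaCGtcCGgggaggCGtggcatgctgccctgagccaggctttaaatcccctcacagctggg
Jag2, chr12:112929496-112929745, minus strand: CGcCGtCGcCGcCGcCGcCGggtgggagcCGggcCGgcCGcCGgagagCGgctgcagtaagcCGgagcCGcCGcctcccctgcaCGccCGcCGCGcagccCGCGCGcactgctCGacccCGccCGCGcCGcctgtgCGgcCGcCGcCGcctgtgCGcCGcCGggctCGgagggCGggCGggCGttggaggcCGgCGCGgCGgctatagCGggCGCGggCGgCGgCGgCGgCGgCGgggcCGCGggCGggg
Tbc1d8, chr1:39478756-39479005, minus strand: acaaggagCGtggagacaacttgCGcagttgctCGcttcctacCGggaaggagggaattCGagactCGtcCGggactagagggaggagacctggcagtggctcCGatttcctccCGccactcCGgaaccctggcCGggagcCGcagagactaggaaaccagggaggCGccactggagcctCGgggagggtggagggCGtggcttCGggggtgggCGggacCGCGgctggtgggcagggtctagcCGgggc
Matn4, chr2:164405161-164405410, minus strand: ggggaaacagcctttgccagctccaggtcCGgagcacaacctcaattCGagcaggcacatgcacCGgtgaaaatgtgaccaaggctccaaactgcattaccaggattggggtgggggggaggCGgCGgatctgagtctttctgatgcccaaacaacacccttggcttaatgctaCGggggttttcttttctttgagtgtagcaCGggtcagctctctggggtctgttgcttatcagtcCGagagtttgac
Sequences and positions are from RefSeq on GRCm38.p6, the mm10 build named in the submitters' processing notes. The number of CG dinucleotides was 3 for Ovgp1, 5 for Nppb and 4 for Pygm, against 54 for Jag2, 20 for Tbc1d8 and 8 for Matn4, and the median over all 27025 promoters of this length was 6. Among downstream genes at 1 TPM or more in both libraries of a group, the median was 5 after 2 h of H2O2 (148 genes with a promoter entry) and 5 after 2 h of KCl (82 genes), and 10 after 7 h of H2O2 (83 genes). After 7 h of KCl it was 6 (37 genes), at 44 °C 6 (58 genes) and at 42 °C 5 (21 genes). The 1075 genes that did not reach the level after 7 h of H2O2 had a median of 5.

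RNA from a part of the silent downstream genes appeared in every stress, most widely after 2 h of H2O2. At 1 TPM or more in both libraries of a group stood 192 of 1507 genes (12.7%) after 2 h of H2O2 and 108 (7.17%) after 7 h, 106 (7.03%) after 2 h of KCl and 48 (3.19%) after 7 h, 80 (5.31%) at 44 °C and 31 (2.06%) at 42 °C. Over all 6 stresses 335 genes reached the level at least in 1 group. The single libraries had 210 and 219 genes after 2 h of H2O2 and 117 and 123 after 2 h of KCl. They lay further apart at 44 °C, with 86 and 105, and after 7 h of KCl, with 53 and 62. The control libraries have 0 such genes by the rule, so the direction is fixed by the choice of members and carries no test.

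The background for these shares is the other 7374 genes that were also under 1 TPM in all controls. Of those, 2.09% reached 1 TPM in both libraries after 2 h of H2O2, 3.35% after 7 h, 0.841% and 1.32% after 2 h and 7 h of KCl, 1.68% at 44 °C and 0.393% at 42 °C. The share of downstream genes was thus 6.1 times the background after 2 h of H2O2 and 8.37 times after 2 h of KCl, and 2.14 and 2.42 times at 7 h. The background holds many more genes with almost no RNA: 5995 of its genes, against 951 of the downstream genes, had a highest control value under 0.1 TPM. Among genes with a highest control value from 0.1 to 0.5 TPM, 22.5% of downstream genes and 6.13% of other silent genes reached the level after 2 h of H2O2, and 12.1% and 2.6% after 2 h of KCl. In the same range the shares were 9.82% and 9.24% after 7 h of H2O2, and 3.88% and 4.26% after 7 h of KCl. From 0.5 to 1 TPM they were 38.5% and 16.3% after 2 h of H2O2, 30.2% and 19.2% after 7 h, 22.5% and 6.01% after 2 h of KCl and 16% and 11.5% after 7 h. Under 0.1 TPM they were 4.21% and 0.45%, 2% and 1.3%, 2.21% and 0.2%, and 0.631% and 0.133% in the same order. In heat, from 0.1 to 0.5 TPM, they were 4.91% and 2.91% at 44 °C and 3.36% and 0.727% at 42 °C. From 0.5 to 1 TPM they were 34.3% and 22.4%, and 10.7% and 5.05%, and under 0.1 TPM 0.315% and 0.05%, and 0% and 0.0167%.

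**Figure D1:**
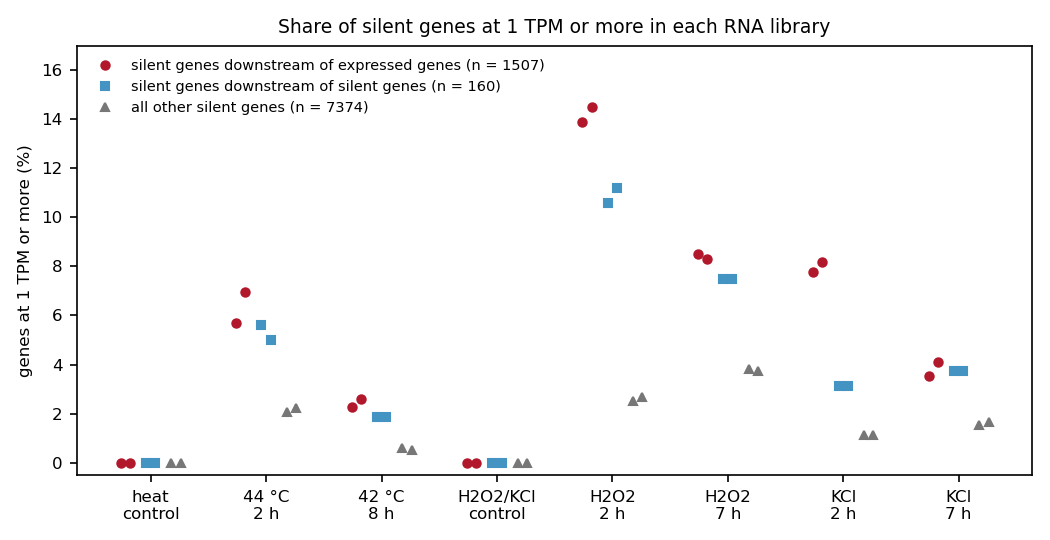
Share of silent genes at 1 TPM or more (vertical axis, percent) in each of the 16 RNA libraries (1 symbol a library, by group), for the 1507 silent genes downstream of an expressed gene (red circles), the 160 downstream of a gene that was itself silent (blue squares) and the 7374 other silent genes (grey triangles, which include the blue set). The controls are at 0 by choice; after 2 h of H2O2 the red circles stand at 13.9% and 14.5%.

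Silent genes downstream of a silent gene reached similar shares in some of the groups, but not after 2 h of KCl. In 160 pairs both genes were under 1 TPM in all controls, and their downstream genes reached the level in 10.6% of pairs after 2 h of H2O2, 6.88% after 7 h, 5% at 44 °C and 3.12% after 7 h of KCl, close to the shares given above. After 2 h of KCl the value was 2.5%, against 7.03% with an expressed upstream gene, and at 42 °C 1.25% against 2.06%. The shares of the 160 pairs rest on 17, 11, 8, 5, 4 and 2 genes. The sets were not matched on control level, and no test of the difference was made. Within the 1507 pairs, the share at the level after 2 h of H2O2 was 9.97% of the 341 pairs with an upstream gene at 5 to 20 TPM in the controls, 12.3% of 838 pairs at 20 to 100 TPM and 16.8% of 328 pairs at 100 TPM or more. After 2 h of KCl the same bins gave 4.69%, 6.92% and 9.76%.

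Distance to the upstream gene went with these shares in the 2 h groups and in heat. RefSeq placed both genes of 1504 pairs on a chromosome; 2 pairs overlapped and the other 1502 were a median of 58.9 kb apart (quartiles 15.4 and 209 kb). Where both strands were known, in 1019 pairs, the downstream gene followed the upstream one on the same strand in 1017. After 2 h of H2O2 the share at 1 TPM or more in both libraries was 44.1% of the 179 pairs under 5 kb apart, 22.6% of 266 pairs at 5 to 20 kb, 8.46% of 461 pairs at 20 to 100 kb and 2.35% of 596 pairs beyond. After 2 h of KCl it ran 33%, 10.9%, 3.9% and 0 (0 of 596 pairs). At 44 °C it ran 20.1%, 7.52%, 2.6% and 1.85%, and at 42 °C 11.7%, 2.26%, 0.434% and 0.336%.

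The 7 h groups had a flatter course. After 7 h of H2O2 the shares over the same distances were 13.4%, 8.65%, 7.38% and 4.53%, and after 7 h of KCl 6.7%, 4.51%, 2.6% and 2.01%. The median distance of the genes at the level was 6.92 kb after 2 h of H2O2, 4.37 kb after 2 h of KCl, 6.8 kb at 44 °C and 3.4 kb at 42 °C, but 29 kb and 29.9 kb after 7 h of H2O2 and KCl. In 764 of 1450 pairs matched by symbol (52.7%), no RefSeq protein-coding gene lay wholly between the pair. Of these, 18.7% reached the level after 2 h of H2O2 and 12% after 2 h of KCl, against 5.98% and 0.729% of the 686 pairs with a protein-coding gene between. At 44 °C the values were 7.72% and 2.62%, at 42 °C 3.53% and 0.437%, after 7 h of H2O2 8.12% and 6.71%, and after 7 h of KCl 3.8% and 2.33%. All of these shares describe genes chosen low in the same controls, and other properties of closely spaced genes were not compared.

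**Figure D2:**
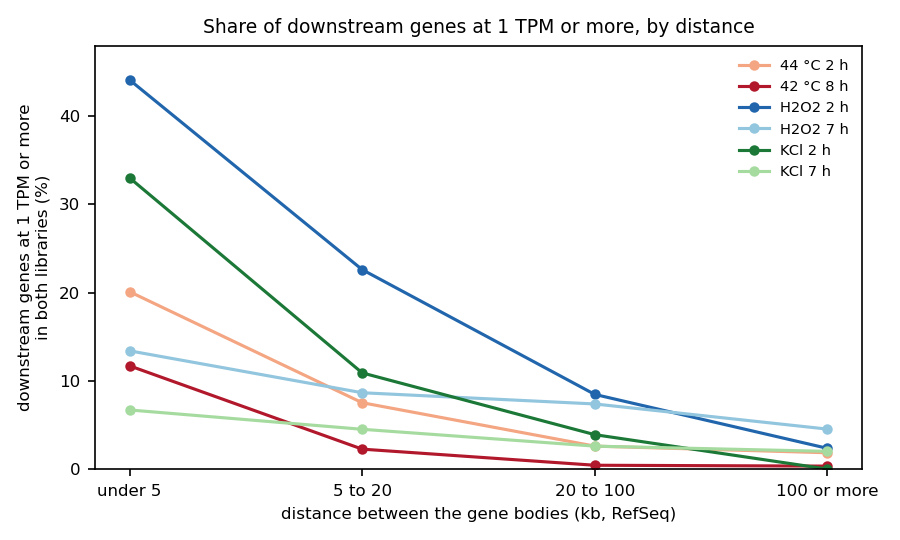
Share of downstream genes at 1 TPM or more in both libraries of a stress group (vertical axis, percent) against the distance between the gene bodies in RefSeq (4 bins, kb; 1 line a group). The lines for 2 h of H2O2 and 2 h of KCl start at 44.1% and 33% under 5 kb and end at 2.35% and 0; the line for 7 h of H2O2 runs from 13.4% to 4.53%.

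The authors' own calls and estimates were read for the same pairs. A DoG call for the upstream gene in both libraries was present in 32.8% of the pairs whose downstream gene reached the level after 2 h of H2O2 and in 18.1% of those whose gene did not, with 20.7% over all 6399 pairs. After 2 h of KCl these were 34.9% and 17.5% (19% over all pairs), and at 42 °C 38.7% and 18% (17.6% over all pairs). After 7 h of H2O2 they were 13% and 11.5% (11.1% over all pairs), after 7 h of KCl 20.8% and 13% (13.1% over all pairs), and at 44 °C 23.8% and 18.9% (19.5% over all pairs). A read-in call is far rarer: for these pairs 9 and 12 were made in the 2 libraries of 2 h H2O2, 8 and 8 in 2 h KCl, 1 in each heated library and 0 in every control and 7 h library. In both libraries of a group a call stood for 8 pairs after 2 h of H2O2 and 6 after 2 h of KCl, where 1.89% and 2.17% of all pairs had one. At 42 °C it stood for 1 pair (0.938% of all pairs). At 44 °C, 7 h of H2O2 and 7 h of KCl it stood for none of the pairs at the level (1.22%, 0.391% and 0.719% of all pairs).

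The deposited read-in estimate is a ratio from 0 upward with no stated formula, which is missing or infinite for many downstream genes without RNA. Its median over the downstream genes at the level was 0.362 after 2 h of H2O2 (192 pairs), 0.655 after 2 h of KCl (106), 0.265 at 44 °C (80) and 0.656 at 42 °C (31). After 7 h it was 0 for H2O2 (108 pairs) and 0.0308 for KCl (48). In the other pairs of the table with a downstream gene at the level, the median lay between 9.99e-05 and 0.00222 in these groups. Those other downstream genes were far more abundant, with a median of 32.1 TPM against 2.31 TPM after 2 h of H2O2. Within 1 to 5 TPM, the medians of silent downstream genes and of other pairs were 0.381 and 0.0176 after 2 h of H2O2 (167 and 520 pairs), 0.677 and 0 after 2 h of KCl (87 and 505), 0.299 and 0 at 44 °C (76 and 437) and 0.685 and 0 at 42 °C (30 and 509). After 7 h they were 0 and 0 for H2O2 (83 and 446 pairs) and 0.0308 and 0 for KCl (46 and 509). The stricter rule of 10 TPM upstream and 0.5 TPM downstream, an alternative chosen after the data were seen, gave a median of 1.01 at 42 °C and 0.0107 after 7 h of KCl.

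**Figure D3:**
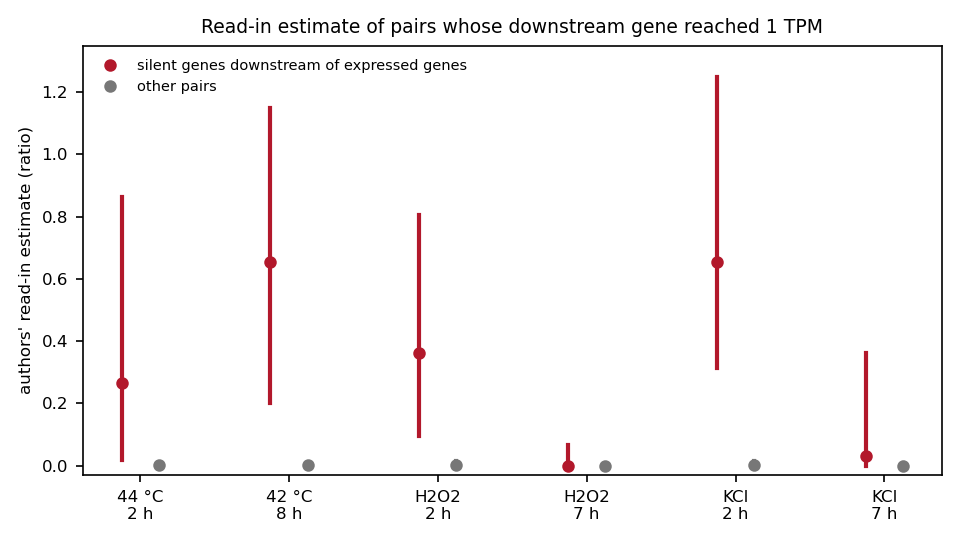
The authors' read-in estimate (vertical axis, a ratio) in the 6 stress groups for pairs whose downstream gene was at 1 TPM or more in both libraries; points are medians and bars quartiles over pairs, red for the silent downstream genes and grey for all other pairs. The red medians stand at 0.265 to 0.656 in the 2 h groups and in heat and at 0 and 0.0308 in the 7 h groups.

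Pygm, the muscle form of glycogen phosphorylase, lies 6.37 kb from Sf1, a splicing factor gene, at chr19:6384408-6398464. It was at 0.26 and 0.57 TPM in the control, 13.2 and 14.2 TPM after 2 h of H2O2, 22.1 and 21.5 TPM after 2 h of KCl, and 1.23 to 2.33 TPM at 7 h in both stresses. Sf1 remained between 182 and 258 TPM throughout. The estimate of this pair was 0.538 and 0.307 in the control and 0.459 and 0.43 in the heat control, at low RNA. It was 0.139 and 0.0888 after 2 h of H2O2 but 0.866 and 0.756 after 2 h of KCl and 0.673 and 0.518 after 7 h of KCl. Read-in was called in both KCl libraries at 2 h and in none of H2O2. Footprints on Pygm came to 5 and 4 after 2 h of H2O2 and 1 and 2 after 2 h of KCl.

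Ovgp1, an oviduct glycoprotein, lies 4.04 kb after Wdr77, a partner of an arginine methyltransferase, at chr3:105973802-105987423. Its RNA was at 0.60 and 0.66 TPM in the control, 12.6 and 16.1 TPM after 2 h of H2O2 and 12.2 and 12.8 TPM after 2 h of KCl. In contrast to Pygm under KCl, its read-in estimate was low where its RNA was high, at 0.0731 and 0.0496 after 2 h of H2O2 and 0.0566 and 0.0592 after 2 h of KCl, with no read-in call. Footprints were nevertheless few, 1 and 2 after 2 h of H2O2 and 1 and 4 after 2 h of KCl. Wdr77 had a DoG call in both libraries of these 2 h groups, and also in both heat control libraries and 1 shared control library. For this gene the low estimate and the low footprint count thus stood side by side.

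Lag3, a receptor of T cells, lies 1.24 kb from Ptms, the parathymosin gene. Lag3 was at 0.47 and 0.50 TPM in the control and 9.68 and 10.4 TPM after 2 h of KCl, but at 1.92 and 2.24 TPM after 2 h of H2O2. It was at 4.87 and 6.45 TPM at 44 °C. Kcnj14, a potassium channel gene 0.475 kb from Grwd1, had the opposite order, with 9.76 and 11.6 TPM after 2 h of H2O2 and 2.97 and 2.44 TPM after 2 h of KCl. Ucp1, the mitochondrial uncoupler of brown fat, 17.4 kb from Tbc1d9, reached 8.07 and 6.81 TPM after 2 h of KCl and 0.53 and 0.54 TPM after 2 h of H2O2, with 0 footprints in all 10 footprint libraries (each allows up to 3 counts). In these 3 genes the level at equal duration hence differed between the agents. Of the 192 genes at the level after 2 h of H2O2 and the 106 after 2 h of KCl, 78 were shared. That is 40.6% of the first set and 73.6% of the second, and both were chosen low in the same controls. The overlap among the other silent genes was not counted.

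Nppb, the precursor of brain natriuretic peptide, was also high after 2 h of H2O2 and differed from the genes above in distance and footprints. It lies 115 kb from Fv1, with 3 protein-coding genes between them, and its RNA was 0.33 and 0.17 TPM in the control, 12.4 and 15.2 TPM after 2 h of H2O2 and 1.21 and 0.70 TPM after 2 h of KCl. The read-in estimate was 0.0137 and 0.00995. Footprints numbered 38 and 174 after 2 h of H2O2, more than on any of the genes above, but also 49 and 90 in the control, where the RNA was under 1 TPM. In footprint TPM, which allows for library depth, Nppb was at 74.1 and 98.1 after 2 h of H2O2 and 40.3 and 81.2 in the control. Against the control, its RNA thus rose far more than its footprints. From 2 h to 7 h of H2O2 both fell, to 15.1 and 42.3 footprint TPM and 0.34 and 1.30 RNA TPM.

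**Figure D4:**
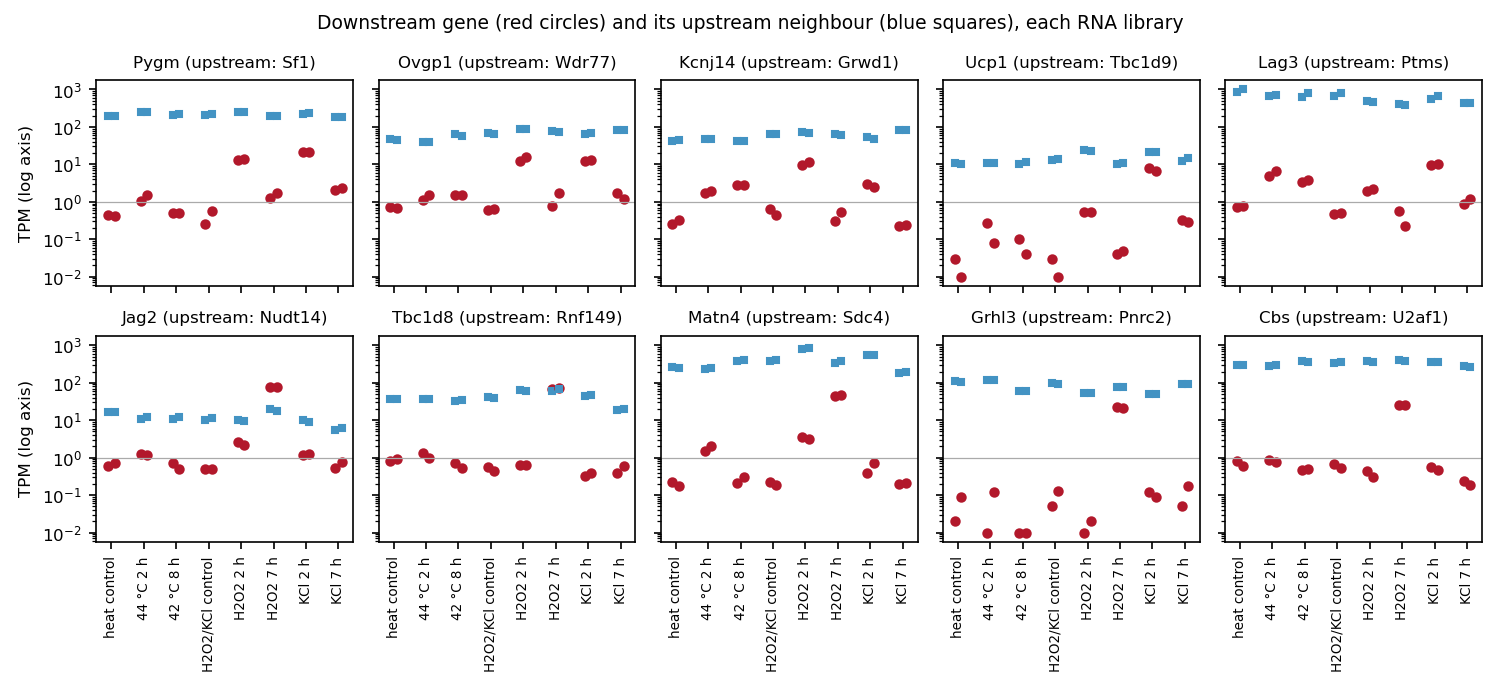
RNA level of 10 downstream genes (red circles) and of their upstream neighbours (blue squares) in each of the 16 RNA libraries, in TPM on a log axis, with values of 0 drawn at 0.01 and a grey line at 1 TPM. In the upper row the red circles are highest after 2 h of H2O2 or KCl; in the lower row they are highest after 7 h of H2O2, where Jag2 reaches 76.2 and 77.7 TPM.

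After 7 h of H2O2 the downstream gene with the highest level was Jag2, a ligand of Notch receptors. Of the 108 genes at the level at 7 h, 34 (31.5%) were at the level at 2 h too. These 34 are 17.7% of the 192 genes there. Both sets were chosen low in the same controls, and the overlap among the other silent genes was not counted. Jag2 lies at chr12:112907803-112929812, 4.48 kb from Nudt14, and stood at 0.51 and 0.49 TPM in the control, 2.64 and 2.14 TPM after 2 h of H2O2 and 76.2 and 77.7 TPM after 7 h. Its upstream gene was at 20.1 and 17.3 TPM in those 7 h libraries, below Jag2, and the read-in estimate was 0.029 and 0.0338. Footprints on Jag2 rose with the RNA, from 0 and 5 at 2 h to 563 and 523 at 7 h. After 7 h of KCl Jag2 was at 0.54 and 0.76 TPM, under the level in both libraries.

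Tbc1d8, a GTPase-activating protein of the TBC family, and Matn4, an extracellular matrix protein, followed the same course. Tbc1d8, 72.5 kb from Rnf149, was at 0.65 and 0.64 TPM after 2 h of H2O2 and 69.0 and 74.8 TPM after 7 h, with 226 and 222 footprints at 7 h against 0 and 1 at 2 h. Matn4, 19.1 kb from Sdc4, was at 3.52 and 3.21 TPM after 2 h and 44.2 and 46.3 TPM after 7 h, with 237 and 131 footprints at 7 h. Cbs, which makes cystathionine from homocysteine, was at 26.0 and 25.8 TPM after 7 h of H2O2 and under 1 TPM in all other 14 libraries, with 89 and 98 footprints. Grhl3, a transcription factor of epithelia, stood at 22.3 and 21.3 TPM after 7 h of H2O2 and at most 0.17 TPM elsewhere, with 91 and 137 footprints. The read-in estimate of Tbc1d8 and Cbs was 0 in both 7 h libraries, and no read-in call was made for any of these genes. After 7 h of H2O2 a DoG call stood in both libraries for Rnf149 and in 1 for Pnrc2, upstream of Grhl3. The upstream genes of Jag2, Matn4 and Cbs had none there. Rnf149 also had a DoG call in both heat control libraries.

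KCl for 7 h had fewer such genes and lower levels. Gal3st1, a sulfotransferase that makes sulfatide, 3.63 kb from Pes1, stood highest at 12.4 and 12.8 TPM, from 0.26 and 0.36 TPM in the control, and had 29 and 46 footprints. Cyp1a1, a cytochrome induced through the aryl hydrocarbon receptor, was at 8.58 and 10.9 TPM and had 4 and 6 footprints. Galnt15, a mucin-type glycosyltransferase, was at 4.56 and 5.17 TPM with 1 and 2 footprints. Gal3st1 was also at 5.46 and 5.08 TPM after 2 h of H2O2, where both libraries had a read-in call, an estimate of 1.11 and 1.13 and only 0 and 2 footprints. The same downstream gene hence had RNA in both settings, with a high estimate in the first and 0.0224 and 0.0745 in the second.

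In heat, P2rx7, an ATP-gated channel, stood highest at 44 °C, with 12.4 and 15.1 TPM against 0.98 and 0.50 TPM in its control. It lies 199 kb from Anapc7, and its estimate there was 0.0137 and 0. Hspa1l, a member of the HSP70 family, reached 3.43 and 3.08 TPM at 42 °C from 0.99 and 0.46 TPM; reads of its strongly heat-induced paralogs can be assigned to it, so its level is uncertain. Has2os, antisense to the hyaluronan synthase gene Has2, was at 5.2 and 7.03 TPM at 44 °C, and because the strand setting of the counting is not stated its reads cannot be told apart from those of Has2. Hist1h2ah, a histone gene with near-identical copies, was at 5.09 and 10.4 TPM at 44 °C and is uncertain for that reason. Footprints were not sequenced for heat.

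Because the controls chose the genes, tests were made only between stress groups, with edgeR's quasi-likelihood test over all expressed genes and Benjamini-Hochberg adjustment at 0.05. Of the 1507 downstream genes, 615 passed the filter on low counts in the H2O2 and KCl libraries and 387 in the heat libraries; a gene that passes through its high group alone had to differ, so the counts below describe the genes and support nothing further. From 2 h to 7 h of H2O2, 478 were called, 158 higher at 7 h and 320 lower, where 73.4% of the 13256 genes tested were called, 37.3% higher and 36.1% lower. From 2 h to 7 h of KCl 318 were called, 86 higher and 232 lower (68.8% of genes tested, 35.1% higher and 33.7% lower). At 2 h, 341 differed between the agents, 270 higher under H2O2 and 71 under KCl (51.3% of genes tested, 27% and 24.2%). At 7 h 343 did, 228 and 115 (78.4%, 41% and 37.4%). In heat, the 42 °C group differed from the 44 °C group in 228 of 387, with 51 higher (37.9% of genes tested) and 177 lower (37.2%), where 75.1% of 12747 genes were called. Temperature and duration cannot be told apart there. DESeq2 called 143 of them, 26 higher and 117 lower.

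The median log2 fold change from 2 h to 7 h of H2O2 was -1.31 over the 615 downstream genes, 0.04 over their 1507 upstream neighbours and 0.00 over all genes. For KCl it was -0.83, 0.03 and 0.00. Of the upstream genes 587 rose and 516 fell from 2 h to 7 h of H2O2, and 587 and 532 with KCl, so that their levels moved about evenly in both directions. Between 42 °C and 44 °C the medians were -0.73 for the downstream and 0.08 for the upstream genes. A downstream gene could pass the filter on low counts through its high group alone, while all 1507 upstream genes passed. The filter can therefore set part of the downstream medians, which are a description only. In bulk RNA, fewer cells expressing a gene and less RNA per cell cannot be told apart.

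Single genes are given here with edgeR's log2 fold change, its standard error and adjusted p. Pygm, Ovgp1, Kcnj14 and Ucp1 were named for a high level or a large change in a group compared here. Their values are therefore a description and no independent test. Pygm fell by 3.16 ± 0.17 from 2 h to 7 h of H2O2 (adjusted p = 5.34e-10) and fell by 3.30 ± 0.15 with KCl (4.09e-10). At 2 h it was lower under H2O2 than KCl, at -0.77 ± 0.12 (0.000101). Ovgp1 fell by 3.52 ± 0.22 over time with H2O2 and fell by 3.08 ± 0.23 with KCl (4.45e-09 and 2.96e-08). Its 2 h levels differed between the agents by 0.11 ± 0.16 (adjusted p = 0.596), which did not pass. Lag3 was lower under H2O2 than KCl at 2 h by 2.42 on this scale (log2 change -2.42 ± 0.18, adjusted p = 8.79e-08), Kcnj14 higher by 1.83 ± 0.16 (4.28e-07) and Ucp1 lower, at -3.88 ± 0.24 (1.24e-08). The level of these 3 genes at equal duration thus differed between the agents in these libraries.

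Several genes had no or very few counts in the lower group, so that their size is given as a bound or a ratio of the shares of counts. Over the 2 libraries of each group, F12, the coagulation factor, had 107 counts after 2 h of H2O2 and 0 after 2 h of KCl, at least 29.2-fold higher against a floor of 3 counts over the group. Armc12 (36 and 0 counts) was at least 9.83-fold and Il23a, a subunit of interleukin-23 (39 and 0), at least 10.7-fold higher in the same comparison. Scgn, the calcium sensor secretagogin, had 36 counts after 2 h of KCl and 0 after 7 h, at least 12.5-fold lower at 7 h. Apoa1, the main protein of HDL, fell from 56 to 0 counts, at least 19.5-fold. All 5 differences passed edgeR's test, with adjusted p of 1.67e-05, 0.000623, 0.000571, 7.55e-05 and 5.84e-05. These genes were named for their large change in the same comparison, so the p-values describe them and support nothing further. The same holds for the rises and falls of named genes given below.

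The largest fitted rises from 2 h to 7 h of H2O2 were in Grhl3, Trp73 and Lhx5. Grhl3 had 1 count at 2 h and 1675 at 7 h, a ratio of 1890 (95% interval 340 to 74900, for counting error only). Trp73, a relative of p53, went from 1 to 275 counts, a ratio of 311 (55.4 to 12300), and Lhx5, a LIM homeobox factor, from 0 to 103, at least 38.8-fold. Jag2 rose by 5.11 ± 0.084 on the log2 scale (edgeR adjusted p = 2.44e-14) and Tbc1d8 by 6.89 ± 0.11 (2.44e-14). Those that fell most were Gpr62, an orphan receptor (85 to 1 counts, ratio 75.2, 13.1 to 3000), Ppil6, a cyclophilin-like protein (92 to 1, ratio 81.3, 14.2 to 3250), and Ifne, interferon epsilon (27 to 0, at least 7.96-fold). Their adjusted p from edgeR were 2.58e-06, 7.04e-07 and 0.00056.

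From 2 h to 7 h of KCl the largest rises were in Ranbp3l, a Ran-binding protein, Rnf182, a ubiquitin ligase, and Lrrn3, a leucine-rich repeat protein of neurons. Their log2 fold changes were 6.19 ± 0.45, 5.28 ± 0.48 and 4.56 ± 0.32, with edgeR adjusted p of 1.27e-07, 2.88e-07 and 1.8e-08; DESeq2 gave an adjusted p of 0.191 for Ranbp3l. They lie 697, 213 and 2720 kb from their upstream genes. At 7 h, Krt15, a basal keratin, Rgs14, a regulator of G protein signalling, and Rasd2, a Ras-like protein, had 402, 433 and 326 counts under H2O2 and 0 under KCl, at least 130-, 140- and 105-fold higher. In heat, Dnah10, a dynein chain 0.629 kb from Atp6v0a2, was at 1.16 and 1.07 TPM at 44 °C and 0.06 and 0.06 TPM at 42 °C (log2 change -3.95 ± 0.22, edgeR adjusted p = 1.11e-09), while Agap2, 7.98 kb from Cdk4, was at 0.30 and 0.12 TPM and 1.75 and 1.85 TPM (3.31 ± 0.28, 6.4e-08).

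Ribosome footprints separated the 2 h groups from 7 h of H2O2. Among the downstream genes at 1 to 5 TPM of RNA, the median of footprint TPM over RNA TPM was 0.0456 after 2 h of H2O2 (165 genes), 0 after 2 h of KCl (86), 0.744 after 7 h of H2O2 (82) and 0.24 after 7 h of KCl (45). No footprint in either library was found on 35.2%, 59.3%, 2.44% and 28.9% of these genes. Genes that were not silent in the controls, in the same range of RNA, had medians of 0.532, 0.563, 0.71 and 0.577, and lacked footprints in 4.34%, 5%, 4.28% and 4.64%. A TPM is a share of its own library, so each ratio is relative within its group and is not a count of ribosomes per message.

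The low values were not particular to the selected downstream genes. The other silent genes were not all shown to lack an expressed neighbour. The other genes silent in the controls, at 1 to 5 TPM, had medians of 0.066 after 2 h of H2O2 (132 genes), 0 after 2 h of KCl (53), 0.734 after 7 h of H2O2 (192) and 0.307 after 7 h of KCl (80). Their shares without a footprint were 32.6%, 60.4%, 5.21% and 20%. Over all downstream genes at 1 TPM or more the medians were 0.0399, 0, 0.701 and 0.24. The ratio of summed shares of counts, added after the data were seen, gave 0.2, 0.069, 0.843 and 0.715, so that for 7 h of KCl the summed value lies well above the median. The first library of 2 h H2O2 footprints is the shallowest, with 1460751 counts against up to 5168537; taken alone it gave a median of 0, and the second library alone gave 0.0467. For 7 h of KCl the first replicate alone gave 0.115 and the second 0.147, both below the 0.24 over genes at the level in both, and the level then had to be met in 1 RNA library only.

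**Figure D5:**
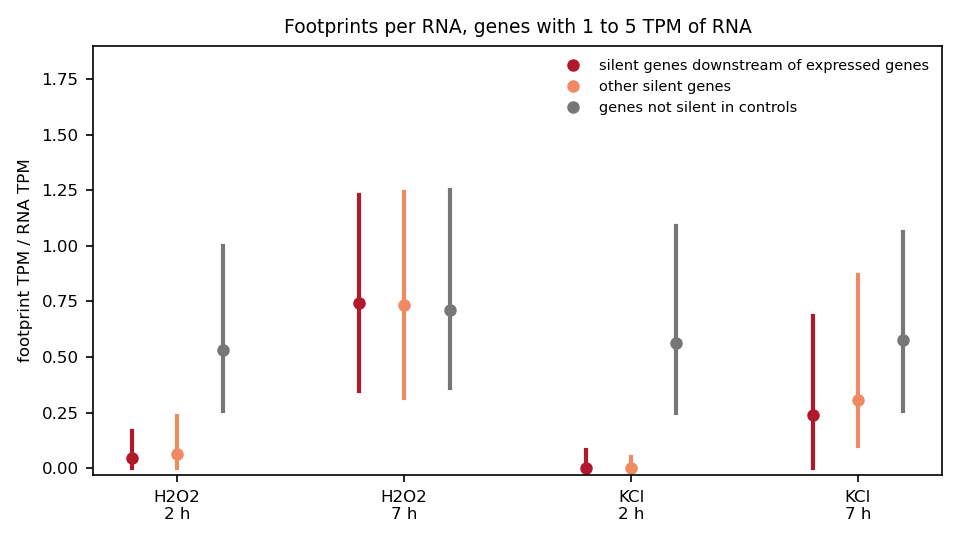
Footprint TPM over RNA TPM (vertical axis, a ratio of group means) for genes with 1 to 5 TPM of RNA in the 4 groups with footprints; points are medians and bars quartiles over genes, for silent genes downstream of expressed genes (red), other silent genes (orange) and genes not silent in controls (grey). The red and orange medians are at 0.0456 and 0.066 after 2 h of H2O2 and at 0 after 2 h of KCl, and near the grey one after 7 h of H2O2.

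Summed over all downstream genes, footprints were 310 and 398 in each 1000000 counts in the control, 473 and 448 after 2 h of H2O2, 1540 and 1310 after 7 h of H2O2, 324 and 346 after 2 h of KCl and 456 and 395 after 7 h. RNA counts on the same genes were 172 and 178 in each 1000000 in the control, 1000 and 1050 after 2 h and 1400 and 1410 after 7 h of H2O2, and 693 and 688 after 2 h and 368 and 390 after 7 h of KCl. RNA above the control is favoured by the rule, which selected on the RNA controls and not on footprints. The 2 assays are therefore not compared in this respect. Footprints after 2 h of KCl lay within the range of the control libraries.

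Of the downstream genes 71 passed the filter on footprint counts. With only the compared groups filtered, 62 and 69 passed where 7 h of H2O2 was among them, and 14 and 15 where it was not, so most passed through that group. The direction of the counts that involve it is therefore largely fixed by the filter. From 2 h to 7 h of H2O2 edgeR called 49, 48 higher and 1 lower, where 29.8% of 10545 genes were called, 18.7% higher and 11.1% lower. Without the first 7 h library 32 were called, and without the second 2 h library 28. H2O2 against KCl at 7 h gave 55, 49 higher and 6 lower (41.2% of genes, 23.5% and 17.8%). H2O2 against KCl at 2 h gave 2, both higher (5.12% of genes, 3.03% higher and 2.1% lower). KCl at 7 h against 2 h gave 6, 4 higher and 2 lower (20.6%, 12.1% and 8.43%). The last count was 0 to 3 when any 1 library was left out, and the 2 h count was 1 without the second H2O2 library or the first KCl library. Footprints on Jag2 rose by 7.65 ± 0.4 on the log2 scale from 2 h to 7 h of H2O2 (edgeR adjusted p = 1.74e-07), and on Ltb4r2, a leukotriene receptor, by 5.31 ± 0.56 (2.21e-05). Tbc1d8 went from 1 to 448 footprints, a ratio of 457 (81.6 to 18100), and Grhl3 from 0 to 228, at least 77.5-fold. Nppb was the 1 gene that fell, by 1.83 ± 0.55 (0.0234).

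A list of 26 genes of 3′ end cleavage and termination holds no downstream gene and gives the other side of the pathway. The share of all genes called in the same comparison stands in brackets. Of the 25 measured, 16 changed from 2 h to 7 h of H2O2 (73.4% of all genes), 6 higher and 10 lower, with a median log2 change of 0.00. From 2 h to 7 h of KCl 20 changed (68.8% of all genes), 14 higher and 6 lower, with a median of 0.26. At 7 h 23 differed between the agents (78.4%), 3 higher and 20 lower under H2O2 (median -0.27). At 2 h 13 differed (51.3%), 8 higher and 5 lower, and between 42 °C and 44 °C 19 did (75.1%), 12 higher and 7 lower. Of a list of 50 stress-inducible genes, 2 are downstream genes, Hspa1l and Il6.

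The RNA libraries held 24441877 to 45244430 counts. All 8 fibroblast markers were at 1 TPM or more in every library (summed 4218 to 11462 TPM). Summed epithelial, endothelial, muscle and neuronal markers reached at most 1.72, 2.19, 0.72 and 0.15 TPM. Of the 2 blood markers Ptprc was under 1 TPM throughout and Cd68, which fibroblasts can also express, gave most of a sum of 5.33 to 44.7 TPM; its part in any result was not tested.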

How the data were processed

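All 26 libraries (16 of RNA, 10 of ribosome footprints; 13 groups of 2) were used. The authors deposited expected counts and TPM per gene for both assays, DoG and read-in calls per library, and a read-in estimate (a score with no stated formula) per pair and library. The submitters' processing notes name STAR, RSEM and Bowtie and the mm10 build, without roles or versions; no source used here gives the strand setting. The footprint tables hold 12 columns of per-sample values that match no sample here and were not used.

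Expected counts were rounded to whole numbers and fitted across all genes with edgeR 4.0.16 in R 4.3.3 (TMM scaling, filterByExpr, quasi-likelihood test, Benjamini-Hochberg at 0.05), all groups of an experiment sharing the spread; H2O2 and KCl, heat, and footprints were fitted separately. DESeq2 1.42.0 and limma 3.58.1 (log2 of TPM plus 1 or 0.1) were alternatives. Standard errors are the log2 fold change over the root of the F statistic. Ratios and bounds used deposited totals, 95% exact binomial intervals and a floor of 3 counts; these cover counting error only.

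Members and lists were chosen with earlier results of these data known. Named genes were, per stress, the 4 with the highest TPM and the 2 with a read-in call and the highest TPM; per tested RNA contrast, the 3 largest rises and 3 largest falls; and the 6 with the highest footprint TPM; with their upstream genes. Some pairs that this rule names are not reported here. On simulated data 80% of 2-fold and 97% of 4-fold changes were recovered for H2O2 at 7 h against 2 h (12811 genes, 7.33% of calls false), 85% and 97% for the heat contrast (12611 genes, 7.61%), and 22% and 83% for footprints of H2O2 at 7 h against 2 h (10323 genes, 7.9%). The changed genes were drawn from all genes tested, so these shares need not hold for the downstream genes, which were chosen for low RNA. RefSeq names matched 1506 downstream and 1507 upstream genes.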

Additional observations from a re-analysis of the deposited data

Results flagged for a closer look

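The change from 2 h to 7 h differed between H2O2 and KCl, by the interaction term of the edgeR fit, for 9 of the 12 genes named for a change over time under 1 of the agents. The same term was called for 68% of all 13256 genes tested and for 42.4% of the 615 downstream genes tested. Since the 12 genes were picked for a large change under 1 agent, their values are a description and no independent test. Each value is the log2 change under H2O2 minus that under KCl, and where a group had 0 or 1 count the fitted value depends on the prior count. Grhl3, at 10.57, changed by 10.54 ± 0.3 under H2O2 and by -0.03 ± 0.72 under KCl, and both libraries of 7 h H2O2 lay above all others. Misp, at 5.70, had 49 counts at 2 h and 31 at 7 h of H2O2, and 85 and 1 with KCl. Apoa1, at 6.51, had 11 and 3 counts with H2O2 and 56 and 0 with KCl.

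Lrrn3, at -5.84, Rnf182, at -5.51, and Ranbp3l, at -9.82, had 198, 166 and 388 counts after 7 h of KCl and 5, 3 and 0 after 7 h of H2O2. Ppil6, at -4.06, and Gpr62, at -4.22, fell with both agents and further with H2O2. Ifne, at -9.26, had 27 and 0 counts with H2O2 and 0 and 1 with KCl.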

How the results depend on the processing

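The number of downstream genes at the level follows its limit. At 2 TPM the counts were 22 (44 °C), 6 (42 °C), 98 and 58 (H2O2, 2 h and 7 h) and 55 and 16 (KCl, 2 h and 7 h), against 35, 2, 59, 135, 27 and 40 of the other silent genes. At 0.5 TPM they were 192, 87, 329, 195, 190 and 111 in the same order, and at 10 expected counts 327, 225, 449, 297, 271 and 194. The stricter membership left 1224 pairs, with 22 (1.8%), 13 (1.06%), 118 (9.64%), 55 (4.49%), 64 (5.23%) and 20 (1.63%). Of 981 pairs with RefSeq order and strand shown, 48 (4.89%), 18 (1.83%), 121 (12.3%), 74 (7.54%), 65 (6.63%) and 32 (3.26%) reached 1 TPM. Leaving out 1 library, the counts ran from 86 to 105, 34 to 39, 210 to 219, 125 to 128, 117 to 123 and 53 to 62, since the level had to be met in 1 library only.

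Of the tested counts, 228 for heat became 143 with DESeq2 and 123 with stricter membership. Footprint counts for H2O2 over time became 30 with stricter membership; for KCl over time 2 with DESeq2, 3 with limma at a pseudocount of 0.1 and 0 with stricter membership; for the agents at 2 h 1 with that limma fit; and for the agents at 7 h 90 with no filter and 31 with stricter membership. Leaving out 1 library gave 430 to 465 (RNA, H2O2 over time), 268 to 289 (KCl), 264 to 283 (agents at 2 h), 314 to 332 (at 7 h), 173 to 206 (heat), and for footprints 28 to 53, 0 to 3, 1 to 2 and 46 to 59; the lone library is then assumed to vary like the other groups.

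With the replicate block the counts were 470, 312, 322, 335 and 225 for RNA and 50, 7, 4 and 55 for footprints. Deviations of same-numbered libraries correlated at -0.0344 to 0.0537 in RNA and at -0.276 to 0.232 in footprints; no label says what a number shares, so the samples share only a number.

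Among alternatives added after the data were seen, the median read-in estimate under stricter membership was 0.379 (H2O2, 2 h), 0.363 (44 °C), 1.01 (42 °C) and 0.0107 (KCl, 7 h). Leaving out 1 library gave 0.317 to 0.333 and 0 to 0 (H2O2, 2 h and 7 h), 0.538 to 0.628 and 0.0462 to 0.0483 (KCl), 0.211 to 0.288 (44 °C) and 0.601 to 0.724 (42 °C). Footprints per RNA ran 0 to 0.0467, 0.593 to 0.658, 0 to 0 and 0.115 to 0.147 for 2 h and 7 h of H2O2 and of KCl; the stricter membership gave 0.855 at 7 h of H2O2, and the summed ratio 0.2, 0.843, 0.069 and 0.715. Of 360 values for the named genes under alternatives, 359 kept direction and call; Ranbp3l with DESeq2 did not pass.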
